A study of Mus musculus with 18 samples.

Results

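Methylation of histone H3 at lysine 9 (H3K9) marks silent chromatin, and the 10 genes described here encode proteins that write it, recruit its writers, bind it or maintain chromatin that carries it. They are the methyltransferases Setdb1, Suv39h1, Suv39h2, Ehmt1 and Ehmt2, the corepressor Trim28, the heterochromatin protein 1 (HP1) genes Cbx1, Cbx3 and Cbx5, and the remodeller Atrx. The members were taken by symbol, and all 10 were found among the 13104 genes of embryonic stem cells (ESCs) and among the 13717 genes of epiblast-like cells (EpiLCs), of which 12410 genes were in both.

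The study asked what Δ9-tetrahydrocannabinol (Δ9-THC), the main psychoactive compound of cannabis, does to cells that model the early mouse embryo. RNA was sequenced from mouse ESCs grown in naive conditions and from EpiLCs derived from them with activin A and bFGF, in lines that carry the germline reporters Blimp1::mVenus and Stella::ECFP. Each of the 4 groups had 3 libraries, namely ESCs with the ethanol vehicle, ESCs with 100 nM of Δ9-THC, and EpiLCs with either, 12 libraries in all. The exposed EpiLCs came from exposed ESCs. The 6 libraries of primordial germ cell-like cells were not analysed here. The cells are a culture model with no embryo and no animal, so n counts cultures of an established line.

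In the textbook scheme, TRIM28 is brought to DNA by zinc finger proteins of the KRAB family and recruits SETDB1, which trimethylates H3K9 at endogenous retroviruses and imprinted regions. SUV39H1 and SUV39H2 place the same mark at pericentromeric repeats, whereas EHMT1 and EHMT2 (GLP and G9a) act as a pair that dimethylates H3K9 in euchromatin. HP1 proteins bind methylated H3K9 through their chromodomain and each other through their chromoshadow domain, and ATRX, with DAXX, deposits histone H3.3 at telomeres and silent repeats. Loss of Setdb1 or Trim28 in mouse ESCs is known to release endogenous retroviruses.

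The members that passed the test in ESCs were the HP1 genes Cbx1 and Cbx3. The coding sequences of all 3 HP1 genes show how far reads of the paralogues can be told apart. The 50 codons most alike among the 3 proteins lie in the C-terminal part, which holds the chromoshadow domain. Each line below gives these 150 coding bases, 5′ to 3′, from the GENCODE M21 transcripts, and capitals mark bases that are not the same in all 3 genes.
Cbx1: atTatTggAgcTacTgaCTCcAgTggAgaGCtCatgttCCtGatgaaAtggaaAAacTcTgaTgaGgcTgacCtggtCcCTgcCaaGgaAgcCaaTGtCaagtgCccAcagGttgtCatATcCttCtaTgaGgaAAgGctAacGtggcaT
Cbx3: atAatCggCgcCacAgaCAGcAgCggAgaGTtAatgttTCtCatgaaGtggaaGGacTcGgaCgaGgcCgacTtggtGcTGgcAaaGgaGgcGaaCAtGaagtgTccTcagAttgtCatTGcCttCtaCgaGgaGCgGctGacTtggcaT
Cbx5: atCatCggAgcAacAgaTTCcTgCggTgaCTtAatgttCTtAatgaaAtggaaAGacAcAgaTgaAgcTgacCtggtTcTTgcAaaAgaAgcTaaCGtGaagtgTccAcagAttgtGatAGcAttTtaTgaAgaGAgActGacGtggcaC
Of the 150 bases, 98 were the same in all 3 genes and 52 were not, whereas 42 of the 50 encoded residues were the same. Pairs of genes shared 74.7% to 76.7% of the bases, and the longest run of coding bases shared by any pair was 20, against reads of 150 bases. Cbx3 has a different limit. Over matches of at least 150 bases at 95% identity or more, 33.2% of its longest coding transcript was matched by 9 other genes, of which 7 were pseudogenes, with an identity of up to 99.8%. The authors kept only reads that mapped to 1 place, so reads from the matched part may be missing from the count of Cbx3. How many are missing was not tested. In Setdb1, 9.1% of the transcript was matched by 1 other gene, and the other 8 members had no such match.

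Positions are those of the GRCm38 build in GENCODE M21. The autosomal methyltransferases lie on chromosome 3 (Setdb1, 95323525 to 95357202), chromosome 2 (Suv39h2, 3455815 to 3475031, and Ehmt1, 24789928 to 24919614) and chromosome 17 (Ehmt2, 34898469 to 34914052). Trim28 lies on chromosome 7 (12999114 to 13031035), Cbx1 on chromosome 11 (96789127 to 96808640), Cbx3 on chromosome 6 (51470360 to 51483704) and Cbx5 on chromosome 15 (103191544 to 103239816). Suv39h1 (8061171 to 8074760) and Atrx (105797615 to 105929403) are on the X chromosome. The authors counted reads without strand in the union mode of HTSeq, which leaves out reads that also overlap exons of another gene. Exons of other genes cover 14.6% of the exon bases of Suv39h1, 9.98% of Suv39h2, 4.73% of Setdb1 and 0.26% of Ehmt1. Reads from these bases may thus be missing from the counts of these members. The other 6 members have no such overlap.

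The libraries held 23427551 to 32096698 adjusted counts, and a member had 573 to 41612 counts in a library. For Ehmt1 in ESCs and Suv39h1 in EpiLCs the libraries of each exposure differed by less than counting error alone would give (a CV of 0.19% against 1.94% for Ehmt1 in vehicle ESCs), and in the other 36 of 40 groups the spread was larger than counting error. Levels are given as CPM, the adjusted counts scaled to a common library total with TMM factors. The 9 markers of naive pluripotency were all measured in both cell types and summed to 4467 to 4775 CPM in vehicle ESCs and 315 to 344 CPM in vehicle EpiLCs. The formative markers, which EpiLCs are expected to express, summed to 159 to 172 CPM over 6 of 7 genes in vehicle ESCs and to 1741 to 2072 CPM over 7 genes in vehicle EpiLCs. Of 11 markers of endoderm, trophoblast, mesoderm and neural cells, 3 were measured in ESCs and 4 in EpiLCs, with a sum of at most 35.5 CPM in any library. Between exposures, the naive markers summed to 4396 to 4690 CPM in exposed ESCs and 338 to 370 CPM in exposed EpiLCs, so the ranges overlapped. By edgeR 0 naive markers were called in either cell type. All 9 had higher values in exposed EpiLCs (2 at an unadjusted p under 0.05, beside 15.1% of all genes, median log2(fold-change) of 0.19), and 7 of 9 had lower values in exposed ESCs (4 at an unadjusted p under 0.05, of which 3 lower, beside 28.7% of all genes, median -0.10). Of the 6 formative markers in exposed ESCs, 3 had higher and 3 lower values. Of them 2, chosen after their values were seen, were called lower, beside 6.91% of all genes called in either direction. These 2, Pou3f1 and Sox3, have 63.9% and 66.4% GC, the end at which values of all genes were lower, as described below. The part of that trend in these calls was not tested. Pou3f1 went from 3.83 to 1.97 CPM (-0.96, adjusted p = 0.0265 in edgeR) and Sox3 from 3.99 to 3.02 CPM (-0.40, adjusted p = 0.0498), while Otx2 had 4.88 and 5.67 CPM (0.22, adjusted p = 0.122). The part of such shifts in the members' values was not tested. In bulk RNA, fewer cells of a type and less RNA per cell cannot be told apart.

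Libraries with the same replicate number did not vary independently. The deviations of the vehicle and the exposed library of 1 number from their group means were correlated across all genes. The correlation was -0.987 to -0.977 in ESCs and -0.985 to -0.979 in EpiLCs. A vehicle library with a high value thus had an exposed partner with a low one. Pairs with different numbers correlated at 0.369 to 0.604 and at 0.223 to 0.695. Deviations were taken from the mean of 3 libraries, so these positive values largely follow from the negative ones and are not separate evidence. The authors adjusted the counts for batches that are not given in the sources used here, and the part of this adjustment in the pattern was not tested. The p-values and SDs below treat the 6 libraries of a cell type as independent, which they were not, so both may be too small.

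In ESCs, the HP1 genes Cbx1 and Cbx3 rose with Δ9-THC, and no other member passed an adjusted p of 0.05 in edgeR. Neither was called with offsets for GC content and length, where Cbx3 went from 0.26 to 0.15 (adjusted p = 0.162) and Cbx1 to 0.14 (adjusted p = 0.135), or in a fit of all 12 libraries (adjusted p = 0.345 and 0.536). Of the 10 members, 2 were called, both higher, beside 6.91% of all 13104 genes (441 higher and 465 lower). At an unadjusted p under 0.05, 5 of 10 members differed, 3 higher and 2 lower, beside 28.7% of all genes. For 6 of 10 members the 2 exposures did not overlap, beside 32.6% of all genes. The median log2(fold-change) of the members was 0.09, against 0.00 over all genes, with 7 members higher and 3 lower.

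**Figure D1:**
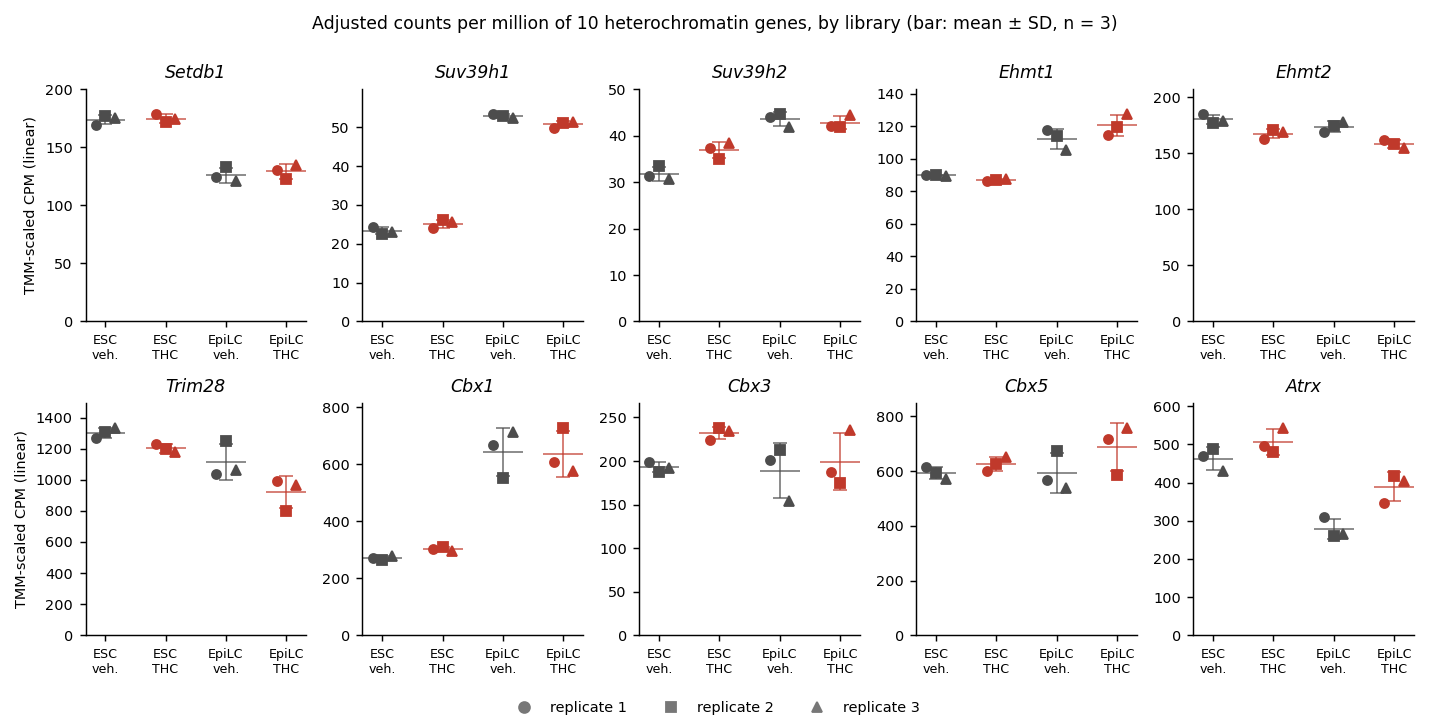
TMM-scaled CPM (linear axis from 0) of the 10 members in each of the 12 libraries, with vehicle in grey and Δ9-THC in red, the replicate number as marker shape, and bars for the mean ± SD of 3 libraries. In ESCs the groups do not overlap for Suv39h2, Ehmt1, Ehmt2, Trim28, Cbx1 and Cbx3, and in EpiLCs for Suv39h1, Ehmt2, Trim28 and Atrx.

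Among the readers, Cbx3 encodes HP1γ, the HP1 protein that is also found in euchromatin and gene bodies. Its level was 199, 188 and 192 CPM in the vehicle ESC libraries 1 to 3 and 224, 238 and 234 CPM in the exposed ones. All exposed libraries were above all vehicle libraries, and the difference was 20.1%, a log2(fold-change) of 0.26 ± 0.04 (SE, adjusted p = 0.0283). Cbx1 encodes HP1β, which resides at pericentromeric heterochromatin. It had 270.1, 264 and 279 CPM in vehicle ESCs and 302, 309.5 and 294 CPM in exposed ESCs, again without overlap. The difference was 11.3%, or 0.15 ± 0.03 on the log2 scale (adjusted p = 0.0466), close to the threshold.

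Cbx5, which encodes HP1α, the third reader and the one most tied to constitutive heterochromatin, had 614, 593 and 570.3 CPM in vehicle ESCs and 601, 624.5 and 651 CPM in exposed ESCs. Here the groups overlapped, and the log2(fold-change) of 0.08 ± 0.04 did not pass the test (adjusted p = 0.262). The 3 readers thus had positive values of 0.08 to 0.26 in ESCs, of which 2 were called.

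The writers of H3K9 trimethylation showed smaller or less certain differences in ESCs. Suv39h2, a pericentromeric methyltransferase, had 31.3, 33.5 and 30.7 CPM in vehicle libraries and 37.4, 34.9 and 38.4 CPM in exposed libraries. The groups did not overlap, and the log2(fold-change) of 0.21 ± 0.05 had an adjusted p of 0.0591, just outside the threshold. Its paralogue Suv39h1 had 24.3, 22.6 and 23.1 CPM in vehicle ESCs and 24.0, 26.0 and 25.5 CPM in exposed ESCs, which overlapped (0.11 ± 0.05, adjusted p = 0.200). Setdb1, the methyltransferase that TRIM28 recruits, had 169, 176.5 and 175 CPM in vehicle ESCs and 179, 171.5 and 174 CPM in exposed ESCs. Its groups lay within each other's range, with a log2(fold-change) of 0.01 ± 0.03 (adjusted p = 0.855).

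The dimethylating pair and the corepressor had negative values in ESCs, none of which passed the test. With the GC and length offsets all 3 values were positive, at 0.04 for Ehmt1, 0.11 for Ehmt2 and 0.08 for Trim28. The offsets also moved the median log2(fold-change) of all genes in ESCs from 0.00 to 0.05, and Ehmt1 stayed below that median. Ehmt2 (G9a) had 185, 177 and 179 CPM in vehicle ESCs and 162.5, 170.2 and 169 CPM in exposed ESCs, without overlap (-0.11 ± 0.03, adjusted p = 0.0794). Ehmt1 (GLP) varied least of all members, with 89.9, 89.9 and 89.6 CPM against 86.5, 86.7 and 87.4 CPM, a difference of -0.05 ± 0.02 (adjusted p = 0.244). Trim28, the most highly expressed member, had 1267, 1304 and 1334 CPM in vehicle ESCs and 1229, 1197 and 1176 CPM in exposed ESCs. Its libraries did not overlap either, and the log2(fold-change) was -0.12 ± 0.03 (adjusted p = 0.0751). Atrx, the remodeller, had 471, 488 and 431 CPM in vehicle ESCs and 497, 479 and 543.5 CPM in exposed ESCs, with overlap (0.13 ± 0.06, adjusted p = 0.229).

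The calls in ESCs needed all 6 libraries. Leaving out any 1 of the 6 ESC libraries left 0 members and at most 1 gene of the whole table called by edgeR, although the values of Cbx3 stayed between 0.25 and 0.29 and those of Cbx1 between 0.14 and 0.17. The log2(fold-change) also fell with the GC content of the gene, as described below.

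**Figure D2:**
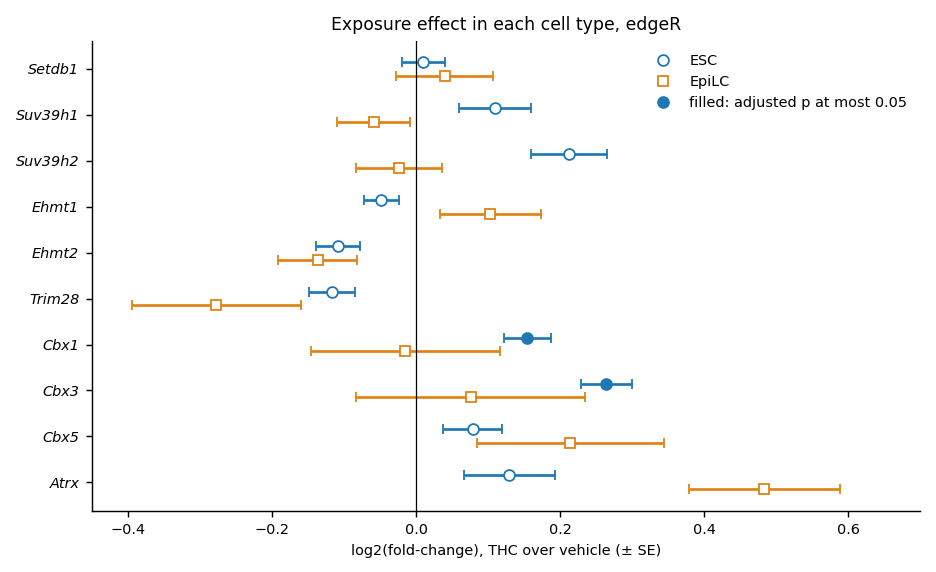
Log2(fold-change) of Δ9-THC over vehicle with its standard error for the 10 members in ESCs (blue circles) and EpiLCs (orange squares), with filled markers at an adjusted p of at most 0.05. Cbx1 and Cbx3 in ESCs are the filled ones, and the largest value is that of Atrx in EpiLCs, at 0.48.

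In EpiLCs, no member passed the test, and Atrx had the largest difference, an increase of 39.8% that was not called. The edgeR test called 0 of 10 members and 0.0% of all 13717 genes, and at an unadjusted p under 0.05 it gave 2 members, 1 higher (Atrx) and 1 lower (Ehmt2), beside 15.1% of all genes. DESeq2 and a fit of all 12 libraries each called 1 member, Atrx. Over all genes, DESeq2 called 71 of 13717 and the fit of 12 libraries 411 of 12410. For 4 of 10 members the 2 exposures did not overlap (1 higher and 3 lower), beside 21.8% of all genes, and the median log2(fold-change) of the members was 0.01 against 0.00 over all genes.

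Atrx had 309.9, 260.1 and 266 CPM in the vehicle EpiLC libraries and 346, 417.5 and 405 CPM in the exposed ones. The groups did not overlap, and the log2(fold-change) was 0.48 ± 0.10 (unadjusted p = 0.0028, adjusted p = 0.171 in edgeR). DESeq2 gave 0.48 with an adjusted p of 0.021, and the fit of 12 libraries gave 0.48 with an adjusted p of 0.0253, whereas with the GC and length offsets edgeR gave 0.22 with an adjusted p of 0.376. In no fit that left out 1 library was it called by edgeR, and its value then lay between 0.42 and 0.57.

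Trim28 and Ehmt2 had lower values in exposed EpiLCs, as in ESCs, and were not called in either cell type. Trim28 had 1034, 1249 and 1065 CPM in vehicle EpiLCs and 992, 802 and 968 CPM in exposed EpiLCs, without overlap (-0.28 ± 0.12, adjusted p = 0.336). The second libraries were the highest of the vehicle group and the lowest of the exposed group. Ehmt2 had 168.5, 175 and 178 CPM in vehicle EpiLCs and 162, 158 and 154.5 CPM in exposed EpiLCs (-0.14 ± 0.05, unadjusted p = 0.0434, adjusted p = 0.318 in edgeR). Its partner Ehmt1 had 117, 114 and 105 CPM against 114.5, 120 and 127.5 CPM, which overlapped (0.10 ± 0.07, adjusted p = 0.530).

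The other methyltransferases differed little between exposures in EpiLCs. Suv39h1 had 53.4, 53.0 and 52.4 CPM in vehicle EpiLCs and 49.9, 51.1 and 51.4 CPM in exposed EpiLCs, a narrow but complete separation (-0.06 ± 0.05, adjusted p = 0.627). Suv39h2 had 44.0, 44.7 and 41.8 CPM against 42.01, 41.9 and 44.4 CPM, with overlap (-0.02 ± 0.06, adjusted p = 0.883). For Setdb1 the levels were 124, 133 and 120.5 CPM against 131, 122 and 135 CPM, also with overlap (0.04 ± 0.07, adjusted p = 0.820).

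The HP1 genes were the members with the widest spread among EpiLC libraries relative to their mean. Cbx1 ranged from 550.1 to 711.5 CPM in vehicle and from 575 to 727 CPM in exposed EpiLCs, and its log2(fold-change) was -0.02 ± 0.13 (adjusted p = 0.968). Cbx3 had 201, 213 and 154 CPM in vehicle EpiLCs and 187, 175 and 236 CPM in exposed EpiLCs (0.08 ± 0.16, adjusted p = 0.861). For Cbx3, library 3 was the lowest of its vehicle group and the highest of its exposed group. Cbx5 had 568.5, 675 and 537 CPM against 719, 587 and 758 CPM, with overlap (0.21 ± 0.13, adjusted p = 0.486). The standard errors of the HP1 genes were 0.13 to 0.16 here, against 0.03 to 0.04 in ESCs.

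The exposure effects of the cell types were compared with an interaction term in a model of 12 libraries. By edgeR 0 of 10 members were called, beside 0.0322% of the 12410 genes in both tables, and 2 members had an unadjusted p under 0.05, beside 13.7% of these genes. They were Atrx, whose effect was higher in EpiLCs by 0.37 ± 0.13 (unadjusted p = 0.0141, adjusted p = 0.242 in edgeR), and Suv39h2, whose effect was lower in EpiLCs (-0.22 ± 0.08, unadjusted p = 0.0206, adjusted p = 0.274 in edgeR). DESeq2 also called 0 members in this test. For Cbx1 and Cbx3 the difference of the effects was -0.15 ± 0.14 and -0.17 ± 0.17 (adjusted p = 0.683 and 0.705 in edgeR), so that the calls in ESCs alone do not show a difference between the cell types.

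The log2(fold-change) moved with base composition. Across genes, which are not independent replicates, Spearman's rho of the log2(fold-change) with GC content was -0.54 in ESCs (13083 genes) and -0.30 in EpiLCs (13696 genes), and rho with exon length was 0.06 and 0.34. In ESCs the median log2(fold-change) of all genes was 0.15 below 42% GC and -0.10 at 54% and above. In ESCs 4 members, Cbx3, Suv39h2, Cbx1 and Suv39h1 (49.97% GC), stood above the quartiles of their GC bins, and the other 6 stood within them. Cbx3 (38.7% GC), Suv39h2 (43.0%) and Cbx1 (44.9%) lay at the GC-poor end with values of 0.15 to 0.26. Atrx (39.5%) and Cbx5 (42.6%) lay there too, with lower values of 0.13 and 0.08. Trim28 (59.6%) and Ehmt2 (60.8%) lay at the GC-rich end with -0.12 and -0.11.

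**Figure D3:**
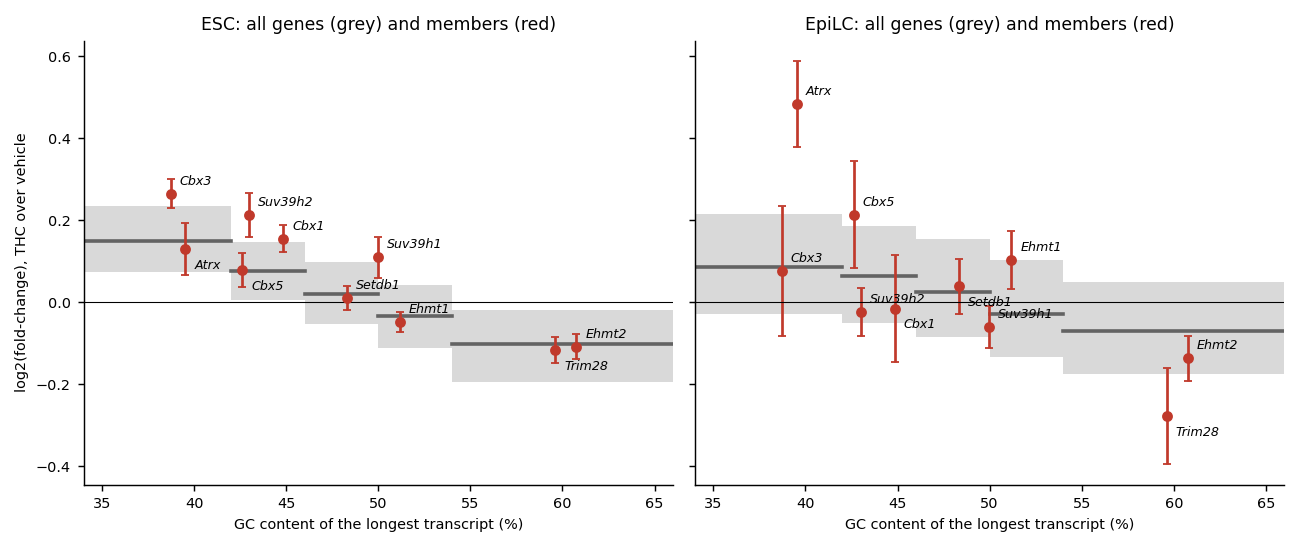
Log2(fold-change) of Δ9-THC over vehicle against the GC content of the longest transcript, in ESCs (left) and EpiLCs (right), with the median (dark line) and quartiles (grey) of all genes in 5 GC bins and the members in red with their standard error. In ESCs the medians step down from 0.15 to -0.10, and Cbx3, Suv39h2, Cbx1 and Suv39h1 lie above the quartiles of their bins. In EpiLCs Atrx, Cbx5 and Trim28 lie outside the quartiles, the first 2 above and the last below.

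Offsets that remove each library's trend with GC content and length shifted the members accordingly. With them, edgeR called 2 of 13104 genes and 0 members in ESCs. The median log2(fold-change) of all genes became 0.05 in ESCs and -0.04 in EpiLCs. In EpiLCs, Trim28 had -0.24, Ehmt2 -0.14 and Atrx, a long gene of 39.5% GC, 0.22. The source of the trend was not tested. The authors used 2 library kits, and the libraries made with each are not given in the sources used here.

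Per kb of exon, Trim28 was the most abundant member and the Suv39h genes the least abundant in both cell types. In vehicle ESCs, Trim28 stood at 313 ± 8.08 CPM per kb (SD, n = 3), followed by Cbx5 (65.8 ± 2.41) and Cbx1 (63.4 ± 1.81), whose ranges overlapped. Ehmt2 (32.9 ± 0.74) and Cbx3 (32.2 ± 0.95) came next and also overlapped. Below them, each without overlap with its neighbours, were Setdb1 (25.3 ± 0.57), Atrx (21.3 ± 1.35), Ehmt1 (11.1 ± 0.02), Suv39h2 (7.21 ± 0.34) and Suv39h1 (4.43 ± 0.17).

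In vehicle EpiLCs the order of CPM per kb was Trim28 (268 ± 28.0), Cbx1 (150.5 ± 19.5), Cbx5 (65.9 ± 8.04), Ehmt2 (31.6 ± 0.86), Cbx3 (31.6 ± 5.23), Setdb1 (18.4 ± 0.93), Ehmt1 (13.8 ± 0.76), Atrx (12.8 ± 1.25), Suv39h1 (10.04 ± 0.10) and Suv39h2 (9.86 ± 0.34). Neighbours overlapped for Ehmt2 and Cbx3, Ehmt1 and Atrx, and Suv39h1 and Suv39h2. Per kb of the longest transcript instead of all merged exons, 8 members in ESCs and 5 in EpiLCs changed their rank, and Trim28 stayed first.

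**Figure D4:**
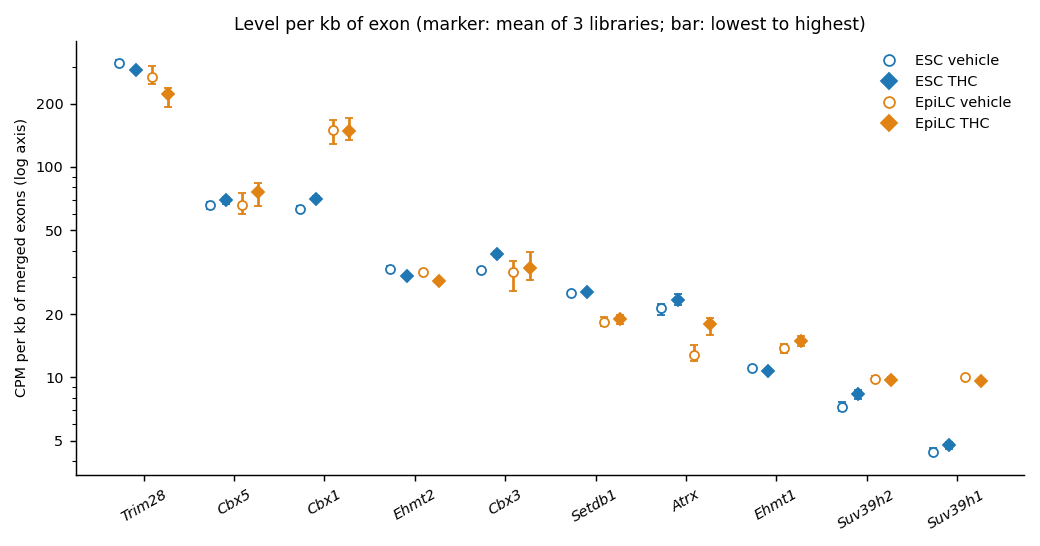
CPM per kb of merged exons (log axis) of the members in the 4 groups, with markers for the mean of 3 libraries and bars from the lowest to the highest library. Cbx1 and Suv39h1 stand higher in EpiLCs than in ESCs, and Setdb1 and Atrx lower, while Trim28 is the highest member in every group.

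The tables of the 2 cell types were adjusted separately, so their levels are set side by side without a test. Cbx1 had 271 ± 7.75 CPM in vehicle ESCs and 643 ± 83.5 CPM in vehicle EpiLCs (SD, n = 3), a ratio of 2.37. Suv39h1 had 23.3 ± 0.91 and 52.9 ± 0.52 CPM, a ratio of 2.27. Atrx went the other way, with 463 ± 29.3 CPM in vehicle ESCs and 279 ± 27.3 CPM in vehicle EpiLCs, a ratio of 0.60. These 3 members had a log2 ratio over 0.5 in size between the vehicle groups, beside 48.3% of all genes, and the same 3 passed this size when all 12 libraries were scaled together.

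Setdb1 was lower in EpiLCs at a ratio of 0.73, Suv39h2 was higher at 1.37 and Ehmt1 higher at 1.25. For 6 of 10 members, which were Setdb1, Suv39h1, Suv39h2, Ehmt1, Cbx1 and Atrx, all 6 ESC libraries lay on 1 side of all 6 EpiLC libraries, beside 60.7% of all genes. Trim28 (ratio 0.86), Ehmt2 (0.96), Cbx3 (0.98) and Cbx5 (1.00) overlapped. Between exposed libraries the ratio was 2.11 for Cbx1, 2.02 for Suv39h1 and 0.77 for Atrx, and 2 members, Cbx1 and Suv39h1, passed a log2 ratio of 0.5.

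The makeup of the HP1 family also differed between the cell types. Cbx1 held 39.3% ± 1.19 of the summed CPM per kb of the 3 HP1 genes in vehicle ESCs and 60.6% ± 6.25 in vehicle EpiLCs (SD, n = 3). Cbx5 held 40.7% ± 1.17 and 26.6% ± 4.10, and Cbx3 held 19.97% ± 0.23 and 12.8% ± 2.37. With Δ9-THC, the share of Cbx1 was 39.5% ± 1.15 in ESCs and 57.5% ± 6.22 in EpiLCs, within the spread of the vehicle libraries. The share of Cbx3 in ESCs was 20.2%, 19.7% and 19.98% in the vehicle libraries and 21.4%, 21.9% and 21.7% in the exposed ones, without overlap.

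**Figure D5:**
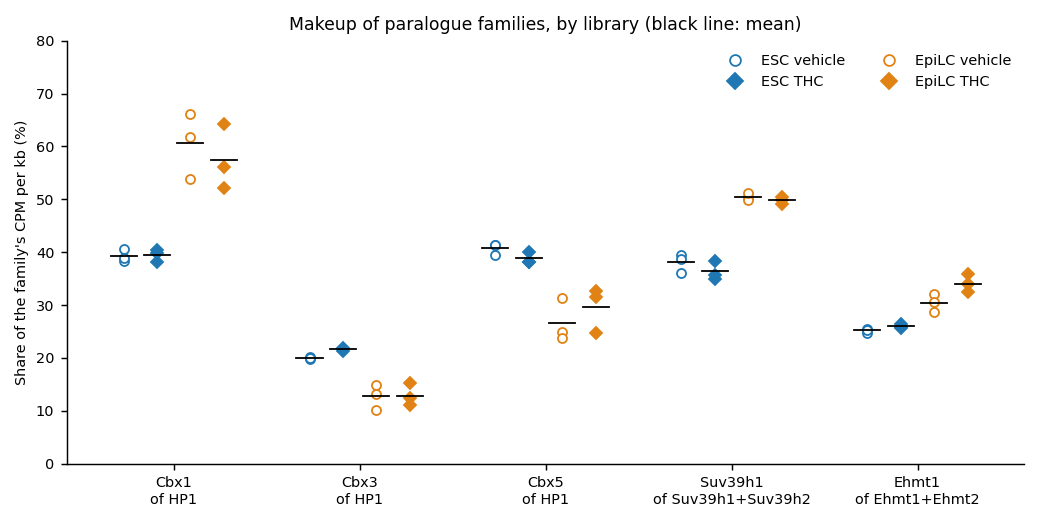
Share in percent of each family's summed CPM per kb of merged exons, by library, for the HP1 genes, Suv39h1 of the Suv39h pair and Ehmt1 of the Ehmt pair, with black lines for group means. Cbx1 and Suv39h1 take a larger share in EpiLCs than in ESCs, and the exposures overlap within each cell type except for Cbx3 in ESCs and Ehmt1 in both.

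Suv39h1 held 38.1% ± 1.79 of the Suv39h pair in vehicle ESCs and 50.5% ± 0.69 in vehicle EpiLCs, and 36.4% ± 1.80 and 49.8% ± 0.67 in the exposed cells. Ehmt1 held 25.2% ± 0.41 of the Ehmt pair in vehicle ESCs and 26.0% ± 0.43 in exposed ESCs, without overlap. In EpiLCs its libraries stood at 32.02%, 30.6% and 28.6% with vehicle and at 32.4%, 33.9% and 35.8% with Δ9-THC, which did not overlap. These shares depend on the length used. Per kb of the longest transcript, Cbx1 held 46.1% in vehicle ESCs and 67.0% in vehicle EpiLCs, and the direction between the cell types was the same. Reads missing from the matched part of Cbx3 (33.2% of its transcript) would lower its share and its level per kb. Reads missing from the overlapped exons of Suv39h1 (14.6%) and Suv39h2 (9.98%) would lower their levels and alter their shares. The size of these effects was not tested.

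The other genes of the pathway were taken from 3 lists, for silencing complexes, for histone supply and the maintenance of heterochromatin, and for H3K9 demethylases. Of their 47 genes, 46 were measured in ESCs, and 2 were called, both higher, beside 6.91% of all genes. They were Kdm3a, a demethylase of H3K9, with 239 ± 4.996 CPM in vehicle and 265 ± 5.67 CPM in exposed ESCs (0.15 ± 0.03, adjusted p = 0.0399), and Hells, a remodeller that supports DNA methylation of repeats, with 433 ± 18.2 and 499 ± 22.2 CPM (0.20 ± 0.05, adjusted p = 0.0494). In all, 32 of the 46 genes had higher and 14 lower values, 12 had an unadjusted p under 0.05 (28.7% of all genes did), and the median log2(fold-change) was 0.04. With the GC and length offsets 0 of them were called, and Hells (37.7% GC) went to 0.07 while Kdm3a (45.5% GC) kept 0.15.

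By list, 0 of 16 silencing genes, 1 of 20 genes of histone supply and maintenance and 1 of 10 demethylases were called in ESCs. Beside the called ones, the highest values were those of Tasor, a subunit of the HUSH complex (0.24 ± 0.10, adjusted p = 0.165), and Zfp644, a zinc finger partner of the EHMT pair (0.22 ± 0.10, adjusted p = 0.203). The lowest were Adnp (-0.69 ± 0.29, adjusted p = 0.181), Kmt5c, which trimethylates histone H4 at lysine 20 in heterochromatin (-0.17 ± 0.04, adjusted p = 0.0512), and the demethylase Phf2 (-0.14 ± 0.03, adjusted p = 0.0630). Adnp had 0.92 to 3.02 CPM, and exons of other genes cover 82.1% of its exon bases. Reads from these bases may be missing from its count, so its level may be too low and its value is uncertain.

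In EpiLCs, 0 of the 45 measured genes of these lists were called by edgeR or DESeq2, and 6 had an unadjusted p under 0.05, beside 15.1% of all genes. The median log2(fold-change) was 0.06, with 27 values above and 18 below 0. The highest were Zfp644 (0.40 ± 0.12, adjusted p = 0.221), Ubn2, a subunit of the HIRA complex that deposits H3.3 (0.36 ± 0.18, adjusted p = 0.386), and the demethylase Kdm7a (0.36 ± 0.11, adjusted p = 0.227). The lowest were Lmnb1, a protein of the nuclear lamina (-0.18 ± 0.14, adjusted p = 0.595), the H3.3 chaperone Hira (-0.18 ± 0.13, adjusted p = 0.566) and the methyltransferase gene Setdb2 (-0.16 ± 0.16, adjusted p = 0.683). Exons of other genes cover 44.7% of the exon bases of Hira, from which reads may be missing, so its value is uncertain.

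Germline and 2-cell-stage genes that this machinery is known to repress in ESCs were also listed. They were not all silent here, since Dazl had 40.3 CPM and Ddx4 17.05 CPM in vehicle ESCs. Whether the levels of the listed genes follow this machinery was not tested. Of 19 such genes, 11 were measured in ESCs and 12 in EpiLCs, and 0 were called by edgeR in either, with 2 of 11 and 4 of 12 at an unadjusted p under 0.05, beside 28.7% and 15.1% of all genes. In ESCs 9 of 11 had higher values with Δ9-THC, beside 6697 of all 13104 genes, and the summed level was 77.3 to 89.3 CPM in vehicle and 87.6 to 102 CPM in exposed libraries, with overlap. In EpiLCs 11 of 12 had higher values, beside 6953 of all 13717 genes, and the sums of 125 to 134 CPM in vehicle and 146 to 158 CPM in exposed libraries did not overlap. The median log2(fold-change) was 0.19 in both cell types, against 0.00 over all genes.

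The 4 most highly expressed of them are genes of germ cells. Dazl, an RNA-binding protein, had 40.3 ± 3.86 CPM in vehicle and 50.8 ± 4.78 CPM in exposed ESCs (0.33 ± 0.09, adjusted p = 0.0720), and its value in EpiLCs was 0.11 ± 0.15 (adjusted p = 0.771). Ddx4, an RNA helicase, had 27.8 ± 3.11 and 36.2 ± 4.13 CPM in EpiLCs (0.38 ± 0.12, adjusted p = 0.227) and a value of 0.07 ± 0.07 in ESCs (adjusted p = 0.555). For Mael, a gene of the piRNA pathway, the level in EpiLCs was 36.8 ± 1.71 and 41.6 ± 2.20 CPM (0.18 ± 0.07, adjusted p = 0.298), and the value in ESCs was -0.02 ± 0.09 (adjusted p = 0.937). Sycp1, a protein of the synaptonemal complex, had 13.1 ± 1.26 and 15.9 ± 1.59 CPM in EpiLCs (0.28 ± 0.11, adjusted p = 0.298) and 4.76 ± 1.01 and 6.46 ± 1.30 CPM in ESCs (0.43 ± 0.20, adjusted p = 0.202). These genes are GC-poor, at 37.0%, 43.1%, 44.9% and 34.6% GC for Dazl, Ddx4, Mael and Sycp1, the end at which values of all genes were higher, and the part of that trend in these values was not tested.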

How the data were processed

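RNA of 12 mouse ESC and EpiLC libraries was sequenced by the authors, who used STAR for alignment with unique hits only and HTSeq (union mode, strand ignored) for counting, dropped low genes and then ran ComBat-seq. The batches used are not given in the sources used here, and the submitters' processing notes name both mm10 and GRCm39. The deposited tables, 1 for ESCs and 1 for EpiLCs, are the resulting whole-number counts. They were tested as deposited with edgeR 4.0.16 (quasi-likelihood test, TMM) in R 4.3.3, on genes with more than 10 counts in all, with Benjamini-Hochberg adjustment over all genes and a threshold of 0.05. Replicates are described as biological. The p-values rest on the spread left between libraries after the authors' adjustment, and same-numbered libraries were not independent in it. Symbols, positions, GC content (longest transcript) and merged exon length came from GENCODE M21, and copies were searched in its transcripts with BLAST. Python 3.11.15, pandas 2.3.3 and matplotlib 3.10.9 made tables and figures.

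The members and lists were chosen with earlier results of these data known. The genes named are all members, of the other pathway genes those called and the 3 highest and 3 lowest values per cell type with a mean of at least 1 CPM, and of the silenced genes the 4 with the highest mean. Alternatives were DESeq2 1.42.0, RLE normalization, a model of all 12 libraries, omission of each library, a replicate block, offsets from natural splines (5 degrees of freedom) of GC content and length, block and offsets combined, all genes or only those with 10 counts or more throughout, and the longest transcript as length. Scaling all 12 libraries together was added after the data were seen. On simulated counts with 200 genes changed by a log2(fold-change) of 1, edgeR recovered 99.5% of them among 13104 genes of ESCs, 97.5% among 13717 genes of EpiLCs and 93% in the interaction test. The simulated libraries varied independently and the members' values were smaller than 1, so these shares do not give the power to call members. All 12 columns were matched to a library, and 0 were left over.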

Additional observations from a re-analysis of the deposited data

How the results depend on the processing

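In ESCs, the 2 calls among the members, the 2 among the other pathway genes and the 906 over all genes became 0, 0 and 5 with the replicate block, 0, 0 and 2 with the GC and length offsets, 0, 0 and 4 with both, and 0, 0 and 31 in the fit of all 12 libraries. Leaving out 1 library gave 0, 0 and 0 to 1. The split of all calls into higher and lower was 441 and 465 as reported, 405 and 473 with RLE normalization, 443 and 310 with DESeq2, 9 and 22 in the fit of 12 libraries, and 5 and 0, 2 and 0, and 4 and 0 with the block, the offsets and both. With RLE normalization, Hells was no longer called (adjusted p = 0.0513) and Kmt5c was called lower (adjusted p = 0.0492 in edgeR). In EpiLCs, the 0 calls became 1 member and 71 genes with DESeq2, 1 member and 411 genes in the fit of 12 libraries, and 0 members and 1 gene with the block and the offsets. DESeq2 gave Adnp no adjusted p. The cause of these changes was not tested.

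Signs turned in ESCs for Setdb1 in the fit of 12 libraries (-0.00591), and, with the offsets and with both the block and the offsets, for Ehmt1 (0.0403 and 0.0402), Ehmt2 (0.112 and 0.112), Trim28 (0.0777 and 0.0778), Kmt5c (0.0301 and 0.0298) and Phf2 (0.0269 and 0.0269), and in EpiLCs for Setdb1 (-0.0568 and -0.0568) and Cbx3 (-0.0594 and -0.0585). With the offsets the median of all genes also moved, to 0.0505 in ESCs and to -0.0403 in EpiLCs. Ehmt1, Kmt5c and Phf2 stayed below that median in ESCs, so these signs are relative to 0 only. Without 1 library the sign also turned for Setdb1 in ESCs (-0.00591 to 0.0241), for Cbx1 (-0.135 to 0.0652) and Cbx3 (-0.0666 to 0.170) in EpiLCs and for the interaction of Ehmt2 (-0.0316 to 0.00976). The other members kept their sign under every alternative run, and 0 members were called in the interaction with RLE normalization, the block, DESeq2 or any library left out, the alternatives run for it.

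The replicate numbers do not meet the rule for paired samples, since same-numbered libraries deviated in opposite directions. The replicate block left the log2(fold-change) of Cbx3 in ESCs at 0.264 (adjusted p = 0.414) and of Cbx1 at 0.155 (adjusted p = 0.429), and no EpiLC member was called with it. For Ehmt1 in ESCs and Suv39h1 in EpiLCs, counting error exceeded the spread between libraries, so that spread understates their uncertainty. The reason for the small spread was not tested.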
